A study of Mus musculus with 12 samples.

Results

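A set of transcripts of granulocytes and basophils were followed in mouse brain cells: Prss34, Mcpt8, Prg2, Elane, Prtn3, Mpo, Ngp, Ltf, S100a8 and S100a9. They are 10 of the 41388 genes counted, and each symbol matched 1 gene identifier. They were chosen by name as genes seen in the cells left over after astrocyte capture, with earlier results of these data known. The choice used no stated threshold, so there is no set of genes just inside or just outside a limit. The difference between left-over and captured cells is therefore given as a description with no test. The study sequenced RNA of astrocytes caught on ACSA-2 beads (ACSA-2 is an astrocyte surface antigen), and of the unbound cells, called flowthrough, from 20-month-old mice. The 12 libraries came from 8 mice. Captured libraries were made from 4 mice labelled KO (numbers 60, 62, 73 and 132) and 4 labelled WT (56, 57, 64 and 78). Flowthrough libraries were made from 2 of the mice of each label (KO 60 and 132, WT 56 and 64), so the fractions share mice.

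Every mouse was on a C57BL/6 background with the alleles Bmal fl/fl and belonged to the ALDH1L1-CreERT2 line, in which a tamoxifen-dependent Cre recombinase is driven by the Aldh1l1 promoter of astrocytes. KO mice were Cre+ and WT mice Cre-. Mice of both labels had been gavaged with tamoxifen when 2 months old, at a daily 2 mg over 5 days. BMAL1, the product of Arntl, is a core activator of the circadian clock, and the Cre driver limits the model to recombination in cells with Aldh1l1 promoter activity. A flowthrough group of 2 mice gives little information on the spread of a label.

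Neutrophils, eosinophils and basophils are granulocytes, which mature in bone marrow and circulate in blood. A maturing neutrophil makes its granule proteins in waves: the primary granule enzymes at the promyelocyte stage, the secondary granule proteins at the later myelocyte stage, and abundant cytosolic S100 proteins from then on. Basophils carry their own granule proteases. Few granulocytes lie within healthy brain tissue, while blood vessels and the marrow of the skull adjoin it.

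Total counts were 38.7 to 51.6 M per library (M, a factor of 1e+06), so that 3 counts, used as a floor, equal 0.0582 to 0.0775 CPM (counts per M of the total). Arntl, the gene that the KO label concerns, had 401, 428, 645 and 628 counts in captured libraries KO 60, 62, 73 and 132, against 360, 239, 242 and 374 in WT 56, 57, 64 and 78. Its flowthrough counts were 261 (KO 60), 284 (KO 132), 292 (WT 56) and 217 (WT 64). The whole-gene count was thus not lower in the libraries labelled KO, and it does not check that label. The summed level of 12 astrocyte markers was 12237 to 26220 CPM in the captured libraries and 3170 to 9576 CPM in flowthrough. Captured libraries KO 73 and WT 78 had at most 3 counts of the Y-linked gene Ddx3y and the other 10 libraries at least 2176, so all flowthrough libraries were of male type.

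All 10 genes were higher in each of the 4 flowthrough libraries than in any of the 8 captured ones, by 8.12-fold (Prtn3) to 152-fold (Prg2) in the ratio of mean CPM. The same complete separation with flowthrough higher was found for 17% of the 20997 genes tested. Since this comparison fits the way the genes were chosen, nothing is read from the count. The fitted log2 difference of flowthrough minus captured was over 4 for 9 of the 10 genes, all but Prtn3, against 2.19% of all genes. Its median was 6.01 over the 10 genes, also with Prss34 and Mcpt8, which had 0 counts in all WT captured libraries, at their bound from a floor of 3 counts per library, and -0.0040 over all genes. In bulk RNA, more cells of a type and more RNA per cell cannot be told apart. The 10 genes together took 0.260%, 0.615%, 0.301% and 1.04% of all counts in flowthrough KO 60, KO 132, WT 56 and WT 64, and between 0.000515% and 0.0247% in the captured libraries.

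**Figure D1:**
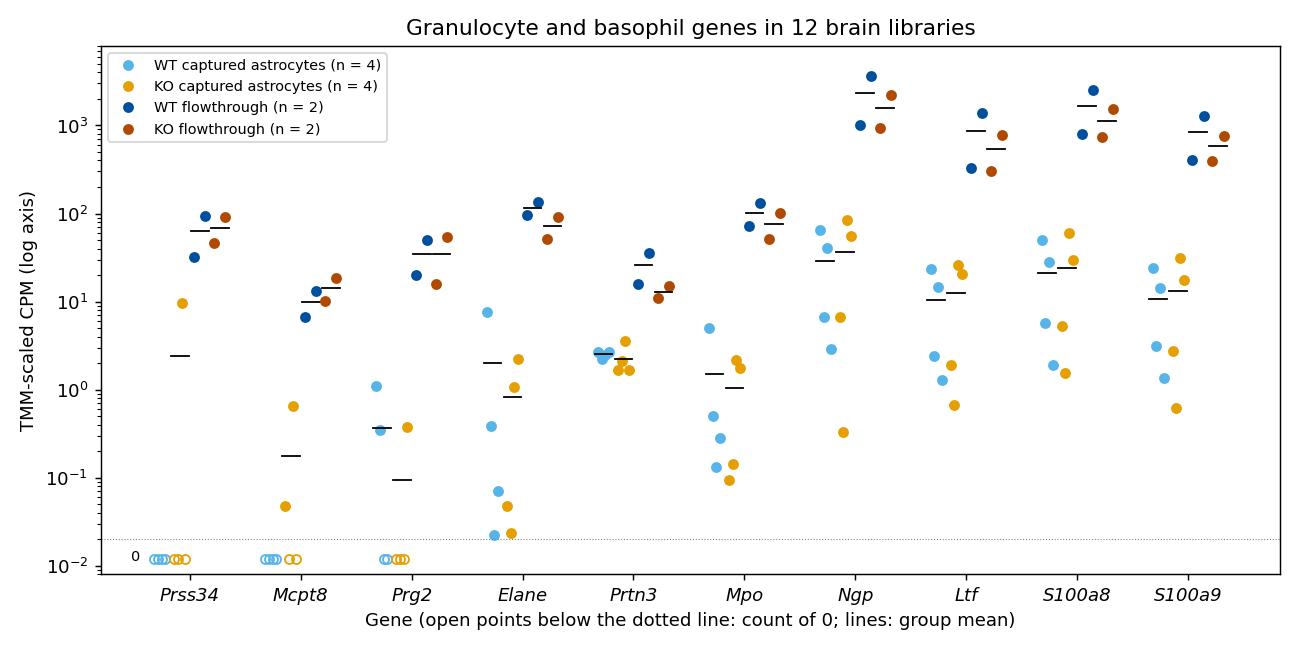
TMM-scaled CPM of each of the 10 genes on a log axis, 1 point per library, in 4 colours for label and fraction, with short lines at group means and open points for a count of 0. For every gene the 4 flowthrough points lie above all 8 captured points, and Prss34 and Mcpt8 are at 0 counts in 7 and 6 of the captured libraries.

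The basophil proteases were close to an on-off pattern between the fractions. Prss34 (ENSMUSG00000056399, chr17:25298394-25300161, GRCm38) encodes a serine protease stored in basophil granules, also known as mast cell protease 11. It reached 46.2, 90.4, 31.9 and 94.1 CPM in flowthrough KO 60, KO 132, WT 56 and WT 64. Among captured libraries it had 510 counts (9.54 CPM) in KO 73 and 0 counts in the 7 others. The groups did not overlap, and the lowest flowthrough library was 3.35 times the highest captured one. In the 4 mice with both fractions the captured library had 0 counts. Against a floor of 3 counts per library, flowthrough was at least 509.2-fold higher in mouse 56, at least 651-fold in 60, at least 1409.9-fold in 64 and at least 1425-fold in 132.

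Mcpt8 (ENSMUSG00000022157, chr14:56082166-56085216), encoding mast cell protease 8, a granule protease that in the mouse marks basophils, was present at 10.2, 18.5, 6.75 and 13.02 CPM in flowthrough KO 60, KO 132, WT 56 and WT 64. Captured KO 73 had 35 counts, captured KO 60 had 2, and the other 6 captured libraries had 0. The library with Prss34 in the captured fraction was thus also the one with most Mcpt8. Without KO 73, Prss34 was at 0 counts in 7 of 7 captured libraries and Mcpt8 summed to 2 counts. The count of Prss34 per count of Mcpt8 was 4.52 to 7.23 in flowthrough and 14.6 in captured KO 73. Captured KO 73 also held the most of a 12-gene microglia list, 3385 CPM against 707 CPM in the lowest captured library; its part in the result was not tested. Mcpt8 overlaps the microRNA gene Mir6949 on the same strand in the GENCODE M21 annotation.

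Prg2 (ENSMUSG00000027073, chr2:84980461-84983632) encodes the major basic protein of eosinophil granules and is also made by basophils. It stood at 15.8, 54.3, 20.1 and 49.5 CPM in flowthrough KO 60, KO 132, WT 56 and WT 64. In the captured fraction it had 0 counts in 5 libraries and 0.380, 1.11 and 0.352 CPM in KO 132, WT 56 and WT 57. Captured KO 73, the library with the basophil proteases, had none. The fitted log2 difference between fractions was 7.50 ± 0.94 (standard error). It was 8.43 without captured WT 56 and 6.92 without flowthrough KO 132. Without captured KO 132 the other KO captured libraries were all at 0, so that a fitted value is no measure.

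Of the neutrophil genes, those of the primary granule enzymes are described first, as the enzymes made at the promyelocyte stage. Elane (ENSMUSG00000020125, chr10:79886312-79888216) encodes neutrophil elastase, a protease of the primary granules. Its levels were 50.8, 92.1, 95.1 and 134 CPM in flowthrough KO 60, KO 132, WT 56 and WT 64. In captured KO 60, 62, 73 and 132 they were 0.0474, 0.0237, 1.07 and 2.198 CPM, and in WT 56, 57, 64 and 78 they were 7.54, 0.381, 0.0223 and 0.0706 CPM. Captured WT 56 held over 3 times the Elane level of any other captured library, and 3 captured libraries held 1 or 2 counts. The fitted log2 difference of 6.10 ± 1.10 became 8.02 without WT 56.

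Mpo (ENSMUSG00000009350, chr11:87793581-87804413), encoding myeloperoxidase, the haem enzyme that makes hypochlorous acid, showed a pattern like that of Elane. Flowthrough levels were 50.9, 101, 72.5 and 131 CPM in KO 60, KO 132, WT 56 and WT 64, and the captured range was 0.0948 CPM (KO 60) to 5.06 CPM (WT 56) with a median of 0.390. Both enzymes were highest in WT 56 among captured libraries. The log2 difference of Mpo was 6.10 ± 0.89, and 7.30 without WT 56. An antisense gene, Gm11505, is annotated across part of Mpo, and the strand setting of the counting is not given in the sources used here.

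Prtn3 (ENSMUSG00000057729, chr10:79874476-79883174), encoding proteinase 3, lies 3138 bases upstream of Elane. It was the exception among the 10 genes. Flowthrough held 10.8, 15.1, 15.8 and 35.8 CPM in KO 60, KO 132, WT 56 and WT 64, while every captured library held 1.66 to 3.56 CPM, with 70 to 190 counts. The coefficient of variation of the captured level was thus far lower than for Elane: 2.39 ± 0.619 CPM for Prtn3 and 1.42 ± 2.59 CPM for Elane (mean ± SD, n = 8). The log2 difference of Prtn3 was 2.94 ± 0.25. Its 5′ end overlaps the opposite-strand gene Plppr3, a neural membrane protein gene with 4.63 to 7.46 CPM in flowthrough and 6.63 to 9.55 CPM in captured libraries, and reads of the overlap cannot be told apart without strand. Its part in the captured Prtn3 level was not tested.

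Of the 10 genes, Ngp had the highest CPM in flowthrough, followed by S100a8. Ngp (ENSMUSG00000032484, chr9:110419750-110423010) encodes neutrophilic granule protein, a cystatin-like protein. It held 938, 2228, 1014 and 3687 CPM in flowthrough KO 60, KO 132, WT 56 and WT 64. In captured KO 60, 62, 73 and 132 it held 6.66, 0.332, 85.1 and 55.6 CPM, and in WT 56, 57, 64 and 78 it held 65.1, 6.62, 40.8 and 2.92 CPM. Captured libraries thus spanned a far wider range than flowthrough ones, and KO 73 and WT 56 stood highest. Ltf (ENSMUSG00000032496, chr9:111019292-111042766), encoding the iron-binding protein lactoferrin, lies 596 kb downstream of Ngp. It was at 304.8, 778, 325 and 1393 CPM in flowthrough and at 0.663 to 26.2 CPM, median 8.43, in captured libraries. The log2 differences were 5.88 ± 1.10 for Ngp and 5.91 ± 0.98 for Ltf, and without flowthrough WT 64 they were 5.29 and 5.22.

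S100a8 (ENSMUSG00000056054, chr3:90669071-90670034) and S100a9 (ENSMUSG00000056071, chr3:90692632-90695721) encode the calcium-binding subunits of calprotectin and lie 22598 bases apart. S100a8 was at 732, 1538, 810 and 2533 CPM in flowthrough KO 60, KO 132, WT 56 and WT 64, and at 1.54 to 60.6 CPM in captured libraries. S100a9 was at 391, 767, 403 and 1275 CPM in flowthrough, and at 0.616 to 31.3 CPM in captured libraries. Their log2 differences were 5.92 ± 0.96 and 5.88 ± 0.93. The S100a8 count per S100a9 count stayed between 1.87 and 2.01 in the 4 flowthrough libraries and between 1.67 and 2.09 in the 6 captured libraries with at least 100 counts of each. The Ngp count per Ltf count was 2.65 to 3.12 in flowthrough and 2.68 to 3.25 in the 4 captured libraries with at least 100 counts of each. Below that limit the ratio of Ngp to Ltf was 0.5 in captured KO 62, from 14 and 28 counts, and 3.51 in captured KO 60. The Elane count per Mpo count was 0.916 to 1.31 in flowthrough. It was 1.49 in captured WT 56, the only captured library with at least 100 counts of each. Below that limit it went down to 0.167, from 1 and 6 counts in captured KO 62 and in captured WT 64. Counts that low leave the captured ratio open.

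Per length of transcript, measured as RPKM, the deposited CPM per kilobase of exon, the mean order in flowthrough was S100a8, Ngp, S100a9, Ltf, Elane, Prss34, Prg2, Mpo, Mcpt8 and Prtn3. S100a8 stood at 3897 ± 2441 RPKM (SD, n = 4) and Prtn3 at 12.2 ± 7.42 RPKM. Each gene was above the next one in all 4 libraries, except that Mcpt8 was above Prtn3 in 2 of 4. The ranges over libraries were apart for only 1 pair of neighbours, S100a9 (763 to 2727 RPKM) and Ltf (113 to 567 RPKM). All other neighbours in the order overlapped in range.

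The stretches just upstream of 4 of these genes are shown, 1 for each class of product (basophil protease, primary granule, secondary granule, cytosolic S100), because the genes shared 1 fraction pattern while their upstream sequences differed. They are the 150 bases before the transcription start in RefSeq on GRCm38.p6, each 5′ to 3′ on the plus strand: Prss34 chr17:25298244-25298393, Elane chr10:79886162-79886311, Ltf chr9:111019142-111019291 and S100a8 chr3:90668921-90669070. Capitals mark matches, on either strand, to 4 short motifs: TTGCNNAA for C/EBP factors, GAGGAA for PU.1, AGATAA for GATA factors and the TATA box TATAAA.
Prss34: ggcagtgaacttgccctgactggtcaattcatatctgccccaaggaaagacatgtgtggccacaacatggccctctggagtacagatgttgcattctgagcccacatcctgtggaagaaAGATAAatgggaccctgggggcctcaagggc
Elane: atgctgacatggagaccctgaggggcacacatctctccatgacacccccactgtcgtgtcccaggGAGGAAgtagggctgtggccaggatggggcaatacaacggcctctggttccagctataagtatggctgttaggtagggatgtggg
Ltf: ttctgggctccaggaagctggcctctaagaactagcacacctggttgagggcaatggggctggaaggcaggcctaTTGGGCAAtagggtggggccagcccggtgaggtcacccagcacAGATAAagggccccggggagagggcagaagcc
S100a8: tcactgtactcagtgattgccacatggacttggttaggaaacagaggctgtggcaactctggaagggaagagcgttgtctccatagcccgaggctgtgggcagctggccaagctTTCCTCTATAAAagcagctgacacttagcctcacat
Prss34 has a GATA match at -31 to -26 from the start. Elane has a PU.1 match at -85 to -80. Ltf has an antisense C/EBP match at -75 to -68 and a GATA match at -32 to -27. In S100a8 an antisense PU.1 match at -36 to -31 is followed directly by a TATA box at -30 to -25.

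Promoters of 9 of the 10 genes were matched in the RefSeq table, all but that of Prg2. Over the 250 bases before the start, the C/EBP motif was found in 3 of the 9 (Ngp, Ltf and S100a9) and in 9.57% of all 32817 promoters. The PU.1 motif was found in 6 of 9 (Mcpt8, Elane, Prtn3, Mpo, Ltf and S100a8), against 23.3% of all. The GATA motif was found in 3 of 9 (Prss34, Ltf and S100a9), against 9.99%, and the TATA box in 1 of 9 (S100a8), against 12.4%. No motif was shared by all 9 promoters. A match describes letters only and does not show binding.

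Among the flowthrough libraries, the 10 genes differed between mice by 2.57-fold (Mpo) to 4.57-fold (Ltf) from lowest to highest. WT 64 was highest for 8 genes, with Mcpt8 and Prg2 highest in KO 132. KO 60 was lowest for 8 genes, with Prss34 and Mcpt8 lowest in WT 56. Relative to each gene's flowthrough mean, WT 64 ranged from 1.07 to 1.99, KO 132 from 0.777 to 1.55, WT 56 from 0.464 to 1.02 and KO 60 from 0.435 to 0.843. The classes were not in a fixed proportion. Per 1000 CPM of Ngp and Ltf, the primary granule genes together had 90.5, 69.1, 137 and 59.1 CPM in KO 60, KO 132, WT 56 and WT 64. On the same base, Prss34 and Mcpt8 together had 45.4, 36.2, 28.9 and 21.1 CPM, higher in both KO libraries than in both WT libraries. That order was seen after the values were known and was not tested. Among all genes tested in flowthrough, 33.6% had labels that did not overlap in either direction.

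**Figure D2:**
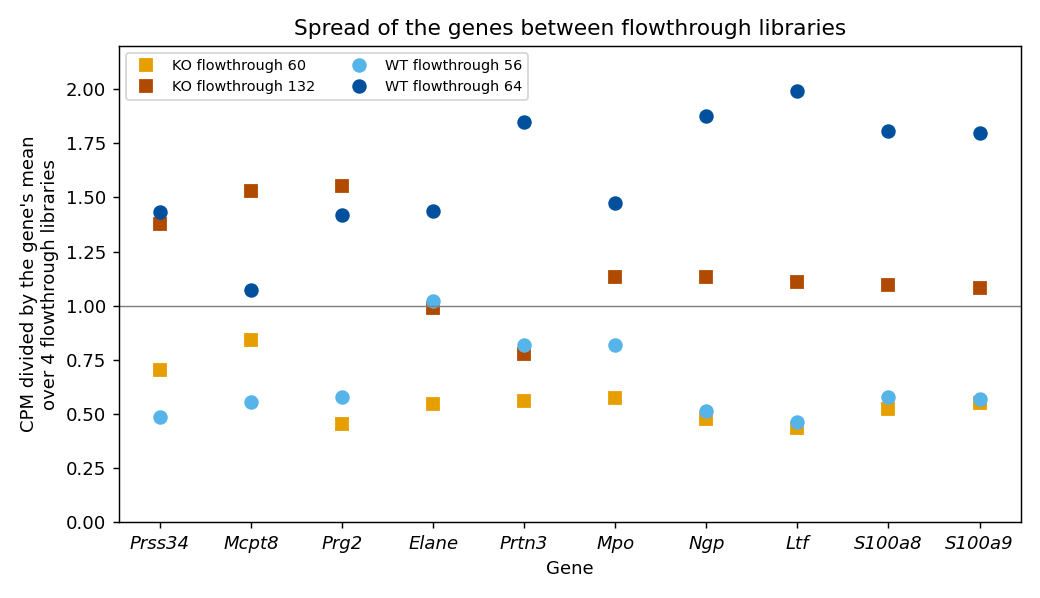
Level of each gene in each flowthrough library relative to that gene's mean over the 4 flowthrough libraries, 1 point per library (squares for KO, circles for WT). WT 64 lies highest for 8 of the 10 genes, reaching 1.99 for Ltf, and KO 60 lowest for 8, reaching 0.435 for Ltf.

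Within a mouse, Ngp, Ltf, S100a8 and S100a9 differed between fractions by similar factors, and these were further apart between mice. Flowthrough exceeded captured by 13.9-fold to 16.97-fold over these 4 genes in mouse 56, by 37.5-fold to 51.9-fold in 132, by 89.8-fold to 96.3-fold in 64 and by 139.8-fold to 161-fold in 60. The summed microglia list differed by 11.4-fold, 16.5-fold, 12.4-fold and 18.6-fold in the same 4 mice. The summed list of T and NK cell genes differed by 16.3-fold, 19.1-fold, 19.8-fold and 15.0-fold. The summed list of 14 mature neutrophil genes differed by 7.56-fold, 17.1-fold, 12.2-fold and 16.0-fold, again in mice 56, 132, 64 and 60. The factor of the 4 genes thus ranged more widely over mice than the summed microglia, lymphocyte and mature neutrophil lists. Whether these ranges differ was not tested. Elane, Mpo and Prtn3 did not share the factors of the 4 genes in every mouse. In mice 64 and 60, Elane was at least 2005-fold and 715-fold higher in flowthrough, Mpo 980-fold and 537-fold, and Prtn3 14.4-fold and 6.54-fold. Captured counts of Elane and Mpo were 1 and 6 in mouse 64, and 2 and 4 in mouse 60. In mice 56 and 132, Elane was 12.6-fold and 41.9-fold higher, Mpo 14.3-fold and 57.3-fold, and Prtn3 5.92-fold and 9.01-fold. A summed list follows its highest genes and need not stand for each of its genes. Of the mature neutrophil list, Pglyrp1 was at 15.5 to 55.8 CPM over the captured libraries, and Retnlg at 0.521 to 23.0 CPM. The summed erythroid list differed by 22.1-fold, 31.5-fold, 24.8-fold and 50.2-fold. Whether the level in captured libraries depended on carry-over from these cells was not tested.

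Other genes of the same cell types moved with the 10 genes, by edgeR's quasi-likelihood test with Benjamini-Hochberg adjustment. These lists were chosen with earlier results of these data known, and they share the libraries and the contrast of the 10 genes. Their calls are thus a description and no independent support for the 10 genes. In this comparison 24.4% of all genes tested were called higher in flowthrough and 24.8% lower, at an adjusted p under 0.05. Of 8 other primary granule and promyelocyte genes, 7 rose and none fell, with a median log2 difference of 4.49. Ctsg, encoding the granule protease cathepsin G, was at 5.45 ± 2.24 CPM in flowthrough and 0.105 ± 0.116 CPM in captured libraries (log2 difference 5.56 ± 0.71, edgeR adjusted p = 1.2e-04). Hp, encoding haptoglobin, was at 202 ± 168 and 8.76 ± 7.84 CPM. Serpinb1a, an inhibitor of neutrophil proteases, did not pass, at 116 ± 43.1 and 81.3 ± 36.6 CPM (log2 difference 0.48 ± 0.29, edgeR adjusted p = 0.191).

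All 11 other secondary and tertiary granule genes rose by edgeR (8 by DESeq2), with a median log2 difference of 5.74. Camp, the cathelicidin antimicrobial peptide gene, was at 371 ± 208 CPM in flowthrough and 5.69 ± 5.57 CPM in captured libraries (log2 difference 6.01 ± 0.96, edgeR adjusted p = 4.5e-04). Chil3, a chitinase-like protein gene of myeloid cells, stood at 259 ± 147 and 3.79 ± 3.92 CPM. Lcn2, encoding the siderophore-binding lipocalin 2, which reactive astrocytes also make, was at 349 ± 203 and 24.1 ± 43.4 CPM. Of 14 genes of mature neutrophils 13 rose, with a median of 4.98. Retnlg, a resistin-like gene, was at 283 ± 175 and 5.80 ± 7.71 CPM (log2 difference 5.63 ± 0.94, edgeR adjusted p = 5.8e-04), while Lrg1, which endothelium also makes, did not pass at 20.7 and 6.72 CPM (log2 difference 1.57 ± 0.90, edgeR adjusted p = 0.17).

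The basophil and mast cell list had 14 genes that rose and 1 that fell out of 16, with a median of 2.498. The number that rose was 10 without flowthrough KO 132 and 9 without flowthrough WT 64. Tpsb2, a mast cell tryptase gene, was at 18.7 ± 4.16 CPM in flowthrough and 4.21 ± 3.89 CPM in captured libraries. Hdc, the enzyme that makes histamine, was at 79.6 ± 37.9 and 28.0 ± 16.6 CPM. Kit, the stem cell factor receptor of mast cells, which neural cells also express, fell (10.1 ± 1.24 against 15.0 ± 3.11 CPM), and Il4 did not pass (1.06 ± 0.256 and 1.10 ± 0.199 CPM). Of 9 eosinophil genes 5 rose, and Epx, Ccr3, Il5ra and Alox15 did not pass. The log2 differences of Ccr3, Il5ra and Alox15 were 1.77, 2.29 and 2.22 (edgeR adjusted p = 0.0505, 0.0696 and 0.0526). Only Epx of the 9 was below 0. Ear2, an eosinophil ribonuclease gene, was at 8.42 ± 4.55 and 0.284 ± 0.335 CPM. Epx, the peroxidase that defines eosinophil granules, was at 3.47 ± 2.07 and 3.68 ± 0.970 CPM (log2 difference -0.08 ± 0.35, edgeR adjusted p = 0.865), so Prg2 and Epx differed in their pattern between fractions. Siglecf, a lectin of eosinophils that microglia can also express, was at 5.46 ± 1.82 and 0.391 ± 0.174 CPM.

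Of 9 transcription factor genes of granulocytes and monocytes 8 rose, with a median of 2.40. Cebpa, needed for granulocyte commitment, was at 11.2 ± 3.12 CPM in flowthrough and 2.10 ± 0.734 CPM in captured libraries. Spi1, which encodes PU.1 and is also a microglial factor, was at 15.8 ± 3.35 and 1.21 ± 0.778 CPM. Myb, a factor of dividing progenitors, did not pass (9.73 ± 3.62 and 5.44 ± 4.80 CPM, edgeR adjusted p = 0.275).

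Markers of other unbound cells moved in the same direction. All 12 microglia genes and all 10 proliferation genes rose, as did 12 of 13 B lineage genes (all but Ebf1), 9 of 10 T and NK cell genes (all but Cd4) and 8 of 10 monocyte genes (all but Vcan and S100a4). Of 14 erythroid genes 13 rose (8 by DESeq2) and 1 (Tmem56) fell. All 8 endothelial genes, 7 of 9 blood stem and progenitor genes and 4 of 8 border macrophage genes rose as well; the last count was 8 without captured KO 73, 2 without flowthrough WT 56, and 1 without flowthrough KO 132 or WT 64. Of 9 platelet genes 2 rose and 1 fell. All 12 astrocyte genes, all 8 neuron genes and 4 of 8 oligodendrocyte genes fell. In summed level, flowthrough over captured was 59.5-fold for the 10 granulocyte and basophil genes, 26.3-fold for the erythroid list, 13.9-fold for the mature neutrophil list, 13.5-fold for T and NK cells, 12.7-fold for the secondary and tertiary granule list, 12.3-fold for microglia, 8.14-fold for the B lineage and 7.74-fold for proliferation. It was 4.80-fold for the eosinophil list, 4.42-fold for the primary granule list, 3.45-fold for the basophil and mast cell list and 0.261-fold for astrocytes. Single genes made up much of these granulocyte sums in captured libraries. Epx held 3.68 of 5.38 CPM of the eosinophil list, and Serpinb1a 81.3 of 100.9 CPM of the primary granule list. Hdc held 28.0 of 62.3 CPM of the basophil and mast cell list (means). The folds of these sums thus do not stand for each gene. The 10 genes were chosen in view of this contrast, so their value is not comparable with those of the lists. The part of blood, marrow or brain-resident cells in the levels of the 10 genes was not tested.

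**Figure D3:**
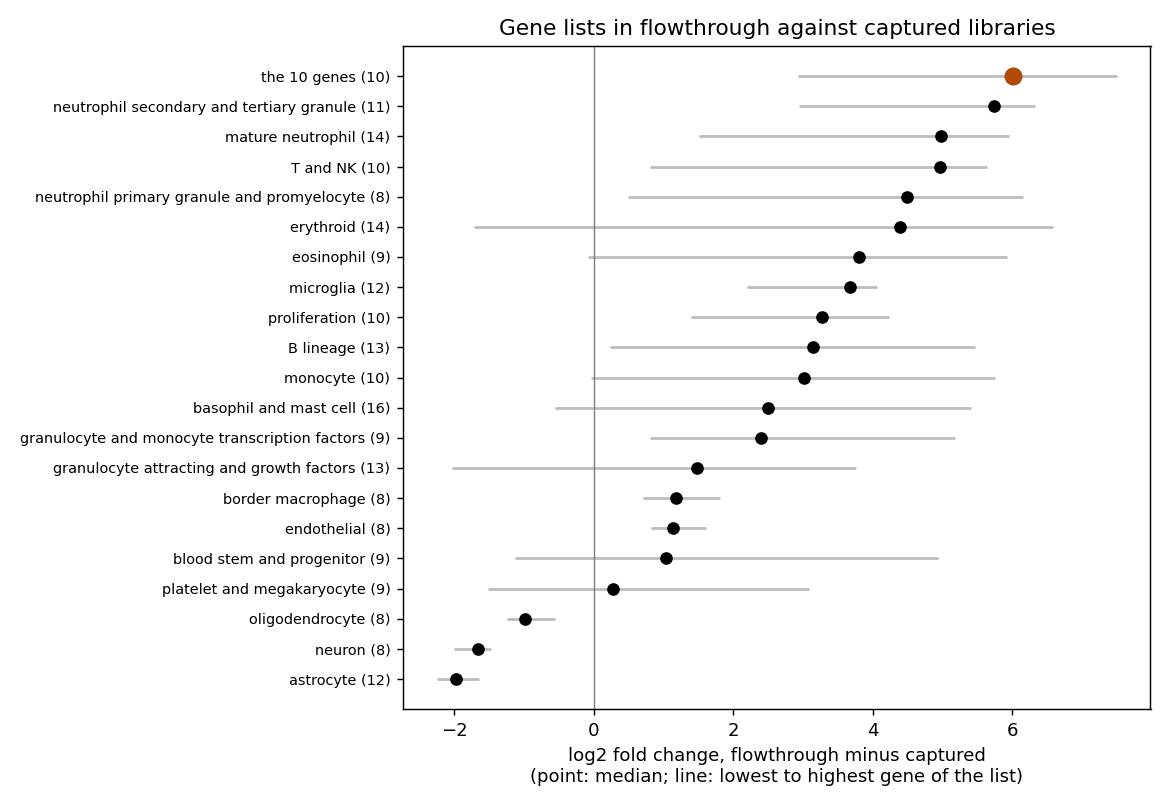
Median log2 difference of flowthrough minus captured for the 10 genes and 20 other gene lists (points), with the lowest and highest gene of each list (lines) and the number of genes tested in brackets; genes at 0 in a group are drawn at their floor bound. The 10 genes have a median of 6.01, the other neutrophil lists lie between 4.49 and 5.74, and the astrocyte, neuron and oligodendrocyte lists lie below 0.

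The study's main contrast was the label. Among captured libraries, 7 of the 10 genes had enough counts to be tested in the KO against WT comparison, and Prss34, Mcpt8 and Prg2 did not. None of the 7 was called by edgeR, at an unadjusted p under 0.05 there were 0 as well, and DESeq2 called none. In this comparison 0.232% of 18527 genes were called. The log2 differences of KO minus WT were -1.26 ± 1.56 for Elane, -0.15 ± 0.29 for Prtn3, -0.51 ± 1.21 for Mpo, 0.36 ± 1.26 for Ngp, 0.26 ± 1.12 for Ltf, 0.19 ± 1.11 for S100a8 and 0.31 ± 1.09 for S100a9. The range of Ngp was 0.332 to 85.1 CPM in KO and 2.92 to 65.1 CPM in WT, so the labels overlapped. None of the 7 genes separated the labels, while 4.03% of all genes did. Without WT 56 the value of Elane was 2.46, and without KO 73 and WT 78 that of S100a8 was -1.19, so the directions changed with the libraries included.

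In flowthrough all 10 genes were tested, and none was called by edgeR or DESeq2. Of 20997 genes 0.00476% were called, which is 1 gene. The log2 differences of KO minus WT were 0.12 ± 2.01 for Prss34, 0.54 ± 1.20 for Mcpt8, 0.01 ± 1.27 for Prg2, -0.68 ± 1.65 for Elane, -0.995 ± 0.42 for Prtn3, -0.42 ± 1.34 for Mpo, -0.57 ± 1.70 for Ngp, -0.67 ± 1.51 for Ltf, -0.56 ± 1.49 for S100a8 and -0.53 ± 1.44 for S100a9. Only Prtn3 had an unadjusted p under 0.05 (0.0347, edgeR), with an adjusted p of 1. Elane and Prtn3 were lower in both KO libraries than in both WT libraries, 2 of 10 genes, against 33.6% of all genes whose labels did not overlap in either direction.

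These standard errors came from a spread pooled with the captured libraries, where the genes varied most. In a fit of the 4 flowthrough libraries alone they were 0.33 (Elane) to 0.72 (Ltf), and again no gene was called (edgeR adjusted p = 0.862 to 0.999). The median over the 10 genes was -0.55, and 0.037 over all genes tested. Without WT 64 it was 0.58, without KO 132 -1.16, without WT 56 -1.02 and without KO 60 -0.10. The sign of the median thus rested on library WT 64. The test of whether the label difference itself differed between fractions called none of the 10 genes, and 0 of all 20997 by edgeR, with 828 at an unadjusted p under 0.05 and 8 called by DESeq2.

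**Figure D4:**
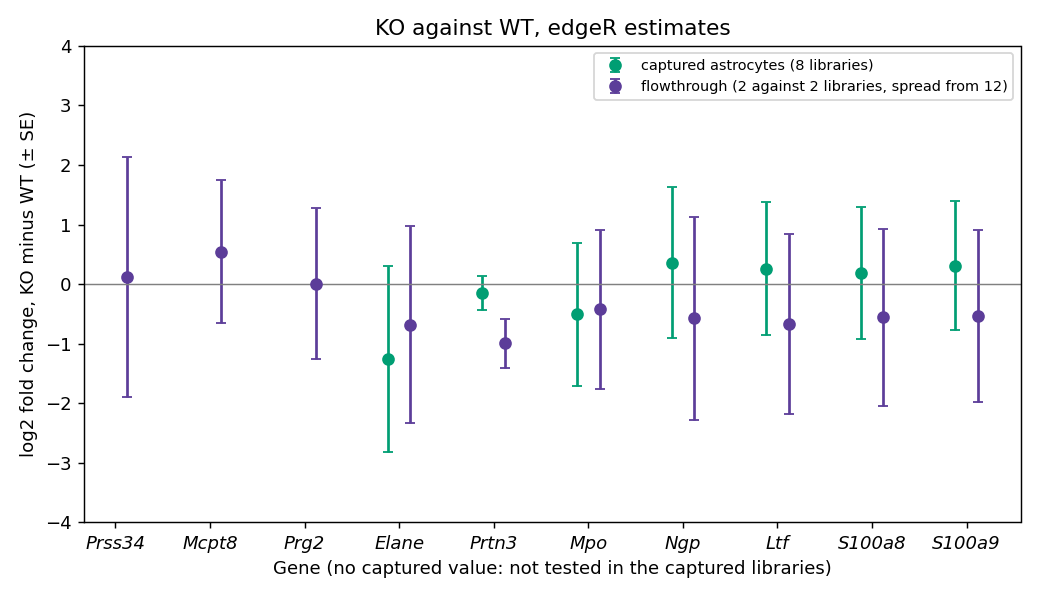
Log2 difference of KO minus WT with its standard error for the tested genes, in captured libraries (8 libraries) and in flowthrough (4 libraries, spread pooled over 12). All estimates lie within about 1 standard error of 0 except Prtn3 in flowthrough, at -0.995 ± 0.42.

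In flowthrough 7 of the 10 genes had a KO minus WT value below 0, all but Prss34, Mcpt8 and Prg2. In the neutrophil lists, 8 of 8 primary granule genes, 11 of 11 secondary and tertiary granule genes and 14 of 14 mature neutrophil genes were below 0, and none was called. The medians were -0.41, -0.55 and -0.69, and without WT 64 they were 0.18, 0.57 and 0.47. Genes of 1 cell type share a source, so these counts are not independent. Summed erythroid genes were at 2029 CPM in flowthrough KO 60, 2205 in KO 132, 6486 in WT 56 and 14154 in WT 64. The erythroid median was -1.15 and stayed between -2.05 and -0.72 with each library left out, with no gene called. The basophil and mast cell median was -0.07 and the eosinophil median 0.13.

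Among 16 genes that attract granulocytes or promote their growth, 13 were tested in flowthrough and 9 in captured libraries, and 1 was called by label in each. That gene was Cxcl5, a chemokine that attracts neutrophils through CXCR2. In captured libraries its log2 difference of KO minus WT was 4.47 ± 0.19 (edgeR adjusted p = 1.4e-05). In flowthrough it had 648 and 351 counts in KO 60 and 132, against 20 and 24 in WT 56 and 64, a log2 difference of 4.47 ± 0.37 (edgeR adjusted p = 0.0014). The flowthrough call was lost without WT 56 (adjusted p = 0.10), without WT 64 (0.059), in the 4 mice with both fractions (0.119) and in the 4 flowthrough libraries alone (0.557), all by edgeR. The log2 difference itself was 3.91 to 4.88 with each library left out and 4.40 to 4.49 under the other alternatives. Cxcl5 was lower in flowthrough than in captured libraries (log2 difference -2.03 ± 0.22, edgeR adjusted p = 3.9e-05), opposite to the 10 granulocyte and basophil genes.

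Over the 12 libraries, the genes whose log2 CPM most resembled the mean profile of the 10 genes were Cdh23 (Pearson r = 0.989), Ctse (0.987), Man2b2 (0.987), Retnlg (0.986) and Edem1 (0.985). The 10 genes themselves had values of 0.934 (Prss34) to 0.985. All of these values mainly reflect the 2 fractions and share the same libraries, and they are given as a description.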

How the data were processed

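RNA was sequenced from captured and flowthrough cells of 8 mice (12 libraries, 38.7 to 51.6 M counts). Per the file headers, each deposited file holds a raw count, a CPM and an RPKM value for each of 41388 genes. The deposited CPM values equal count per total count within 5.1e-11, and the deposited RPKM values equal that CPM per kilobase of exon within 9.1e-11. Per the submitters' processing notes, the tools were featureCounts 1.4.6-p5, Subread, STAR 2.5.1a and bcl2fastq, with GRCm38. Their roles and settings, strand included, are not stated in those notes. Per the labels' protocols, cells were freed with collagenase, debris was removed, Trizol and columns gave the RNA, and a SMARTer kit the libraries. Symbols matched 40254 identifiers.

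The count test was edgeR 4.0.16 under R 4.3.3 (quasi-likelihood, TMM, filterByExpr, two-sided, Benjamini-Hochberg adjustment, threshold 0.05). Fractions, flowthrough labels and the interaction used all 12 libraries with 4 group means (20997 genes). Captured labels used 8 libraries (18527 genes). CPM in the text are TMM-scaled from the 12-library fit, RPKM are as deposited, and values are mean ± SD or log2 estimate ± standard error. That standard error was derived as the absolute log2 estimate divided by the square root of the quasi-likelihood F statistic. Floors of 3 counts cover counting error only. On simulated counts, 93.5% of genes changed 4-fold were recovered for captured labels (18196 genes) and 81.5% for flowthrough labels (20532 genes). The share of false calls was 4.59% and 6.86%. These rates do not stand for the genes followed here, whose label differences had large standard errors. All but Prtn3 (0.42) had 1.20 (Mcpt8) to 2.01 (Prss34) in flowthrough. Those tested in captured libraries had 1.09 (S100a9) to 1.56 (Elane), again all but Prtn3 (0.29). Recovery of a 4-fold change in these genes was not tested.

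Same-numbered libraries were taken to come from the same mouse, by the numbers in the sample titles. Their deviations from group means correlated at 0.155 (mouse 56), 0.352 (60), 0.251 (64) and -0.0066 (132). These values do not check the pairing, because the 2 flowthrough libraries of a label deviate from their mean as mirror images. The genes and lists were chosen with earlier results of these data known. Named list genes are among the 4 per list with the highest mean RPKM, and exceptions to a count were named after their values were seen. Alternatives were RLE or library-size scaling, other filters, DESeq2 1.42.0, subsets of libraries, the mouse block and each library left out. Promoters came from RefSeq (GRCm38.p6); coordinates are those deposited.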

Additional observations from a re-analysis of the deposited data

Results flagged for a closer look

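Within captured groups of 4 libraries, a library was singled out when its gap to the nearest other library, divided by the range of the group, was above 0.829. Of 18 groups of 1 gene and 1 label, and 2 of the summed level of the 10 genes by label, 5 met this. Chance gives about 1 in 20 for normally distributed values, but the rule was applied to CPM without a log, whose distribution was not checked. Nor does that rate apply where most libraries of a group have 0 counts, as for Prss34, Prg2 and Mcpt8. For Prss34 the gap was 1 of the range, with 9.54 CPM in captured KO 73. The other KO libraries were at 0, which gives 1 by construction. For Mcpt8 it was 0.928, with 0.655 CPM in the same library KO 73. For Prg2 it was 1 in the same way, with 0.380 CPM in captured KO 132 and 0 in the others. For Elane it was 0.952, with 7.54 CPM in captured WT 56. For Mpo it was 0.926, with 5.06 CPM in the same library WT 56. The 5 values came from 3 libraries.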

How the results depend on the processing

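The higher level in flowthrough held for every gene under each of the 190 combinations of gene and alternative, and none of the 10 genes was called by label under any alternative in captured libraries (105 values), in flowthrough (190 values) or for the interaction (190 values). The 10 genes were chosen in view of the fraction contrast, and each flowthrough library lay above each captured one. The alternatives could thus hardly change the direction between fractions, and nothing is read from it. The median log2 difference between fractions was 5.64 to 6.82 with each library left out. It was 5.93 with the mouse as replicate block and 5.69 for the same 8 libraries without the block. The block changed no call of a member. Called by label in captured libraries were 43 genes, 28 with library size only, 184 with DESeq2 and 12 to 37 with each library left out. Called in flowthrough was 1 gene, 23 with DESeq2, 0 in the 4 mice with both fractions, 0 in the flowthrough libraries alone and 0 to 5 with each library left out (5 without KO 132, 0 without WT 56 or WT 64). For the interaction, 0 genes became 8 with DESeq2. The cause of these changes was not tested. Between fractions, DESeq2 called higher 8 of 11 secondary and tertiary granule genes (11 by edgeR), 11 of 14 mature neutrophil genes (13) and 8 of 14 erythroid genes (13). With each library left out, 9 to 14 basophil and mast cell genes and 4 to 7 eosinophil genes were called higher. Border macrophage genes that rose were 4 of 8, and 1 to 8 under the alternatives.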
